A study of Homo sapiens with 12 samples.

Results

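Expression was followed for 38 genes of the NRF2 antioxidant system in HT1080 cells, an established human fibrosarcoma line. The genes were listed by symbol and comprise regulators, enzymes of glutathione and thioredoxin metabolism, peroxiredoxins, superoxide- and peroxide-removing enzymes, NADPH-supplying enzymes, detoxification genes and haem genes. All 38 were found among the 19293 genes of the count table, and all 38 were among the 12160 genes kept for testing. RNA sequencing covered 4 groups of 3 libraries: combination cells, given IFNγ at 10 ng/ml and 20 Gy of radiation; irradiated cells, given 20 Gy alone; IFNγ-treated cells, given 10 ng/ml alone; and untreated cells, given neither. IFNγ, the type II interferon, is a cytokine made by lymphocytes. All cells were harvested at 24 h, so the data describe 1 line, 1 dose of each agent and 1 time. The comparisons asked what each agent did to the antioxidant genes alone and on top of the other.

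NRF2, encoded by NFE2L2, is a transcription factor that pairs with small MAF proteins on antioxidant response elements, short DNA motifs near many genes of redox defence. KEAP1 holds NRF2 in the cytoplasm and directs its degradation, and oxidants or electrophiles that modify KEAP1 let NRF2 accumulate. BACH1 is a repressor that occupies many of the same elements and leaves them when it binds haem. The amount and activity of these proteins are largely set after transcription, so RNA levels do not measure NRF2 activity. Ionizing radiation and interferons are both known to raise reactive oxygen species in cells.

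Total counts ran from 10254314 to 10956421 in combination libraries, 9675126 to 10084853 in irradiated, 10263803 to 11010656 in IFNγ-treated and 9762772 to 10550510 in untreated libraries. Levels are in CPM, counts per 1e6 counts of the scaled library total. Known responses separated the libraries as labelled: GBP1, an interferon-induced GTPase, was at least 27.5-fold higher in any library with IFNγ than in any without, and CDKN1A, the p53-induced inhibitor of cyclin-dependent kinases, was at least 4.90-fold higher in any irradiated library than in any unirradiated. Of 10 mesenchymal markers 9 were kept for testing, and their sum was 7682 to 7696 CPM in combination, 7899 to 8206 CPM in irradiated, 7712 to 7730 CPM in IFNγ-treated and 8137 to 8367 CPM in untreated cells. Sums of epithelial markers reached at most 4.72 CPM and those of endothelial markers 2.18 CPM. Of 6 immune markers 0 passed the filter and 0 were at 0 counts in every library. Their summed level was highest in irradiated replicate 2, at 5.22 CPM. There PTPRC had 23 counts against 2 and 1 in the other irradiated libraries, and LYZ had 14 counts against 4 and 4. The interferon-induced genes GBP5 and IDO1 had 59 and 8 counts there, against 10 and 3 for GBP5 and 1 and 1 for IDO1. Combination replicate 1, given IFNγ, had 6857 counts of GBP5 and 1228 of IDO1. The main results that rest on the irradiated group are therefore also given without irradiated replicate 2.

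The combination changed 24 of the 38 genes relative to untreated cells, 15 upward and 9 downward (edgeR quasi-likelihood test, adjusted p under 0.05 over all genes). The share of all tested genes called in that comparison was 62.1%, against 63.2% of the 38, and the median log2 fold change of the 38 was 0.097, against -0.0014 over all genes. Higher calls made up 30.9% and lower calls 31.2% of all genes tested. Radiation alone changed 25, of which 14 rose and 11 fell, against 56.1% of all genes called, 27.9% higher and 28.2% lower. The median of the 38 was 0.083 and that of all genes 0.0061. IFNγ alone changed 21, of which 13 rose and 8 fell, where 29.1% of all genes were called, 15% higher and 14.1% lower. Their median was -0.027, against -0.0052 over all genes. Apart from AKR1C1, with 4 to 16 counts, and OSGIN1, with 17 to 40, each of the 38 had at least 50 counts in every library. The 3 comparisons share the untreated libraries, so their values are set side by side and not tested against each other. In bulk RNA, fewer cells expressing a gene and less of its RNA per cell cannot be told apart.

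Most changes were small. A log2 fold change of at least 0.5 with a call was seen for 6 of the 38 in combination cells, 5 in irradiated cells and 4 in IFNγ-treated cells, each against untreated cells, where 22.1%, 17.5% and 7.76% of all genes passed the same limits. The 3 libraries of a treated group lay entirely above the untreated ones for 17 of the 38 in combination, 17 in irradiated and 12 in IFNγ-treated cells, and entirely below them for 8, 11 and 12, where 64.3%, 60.8% and 39.5% of all genes had groups that did not overlap in either direction. The split of the IFNγ calls into higher and lower depended on scaling, although 0 calls reversed direction. With library totals in place of TMM scaling, 24 genes were called with IFNγ alone, 9 higher and 15 lower, and the median over all genes moved to -0.063. Without IFNγ replicate 1 the calls numbered 18, of which 8 were higher and 10 lower. Shares of all genes called under these settings are not given here, so the splits cannot be read as particular to the 38. Without irradiated replicate 2, radiation changed 24 of the 38, 13 upward and 11 downward, where 51.8% of all genes were called. Its log2 fold changes were then 0.76 for GPX1, -0.62 for GCLC, -0.56 for SRXN1, 0.48 for GSTM3, -0.24 for TXNRD1, -0.16 for NFE2L2 and -0.26 for MAFG.

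**Figure D1:**
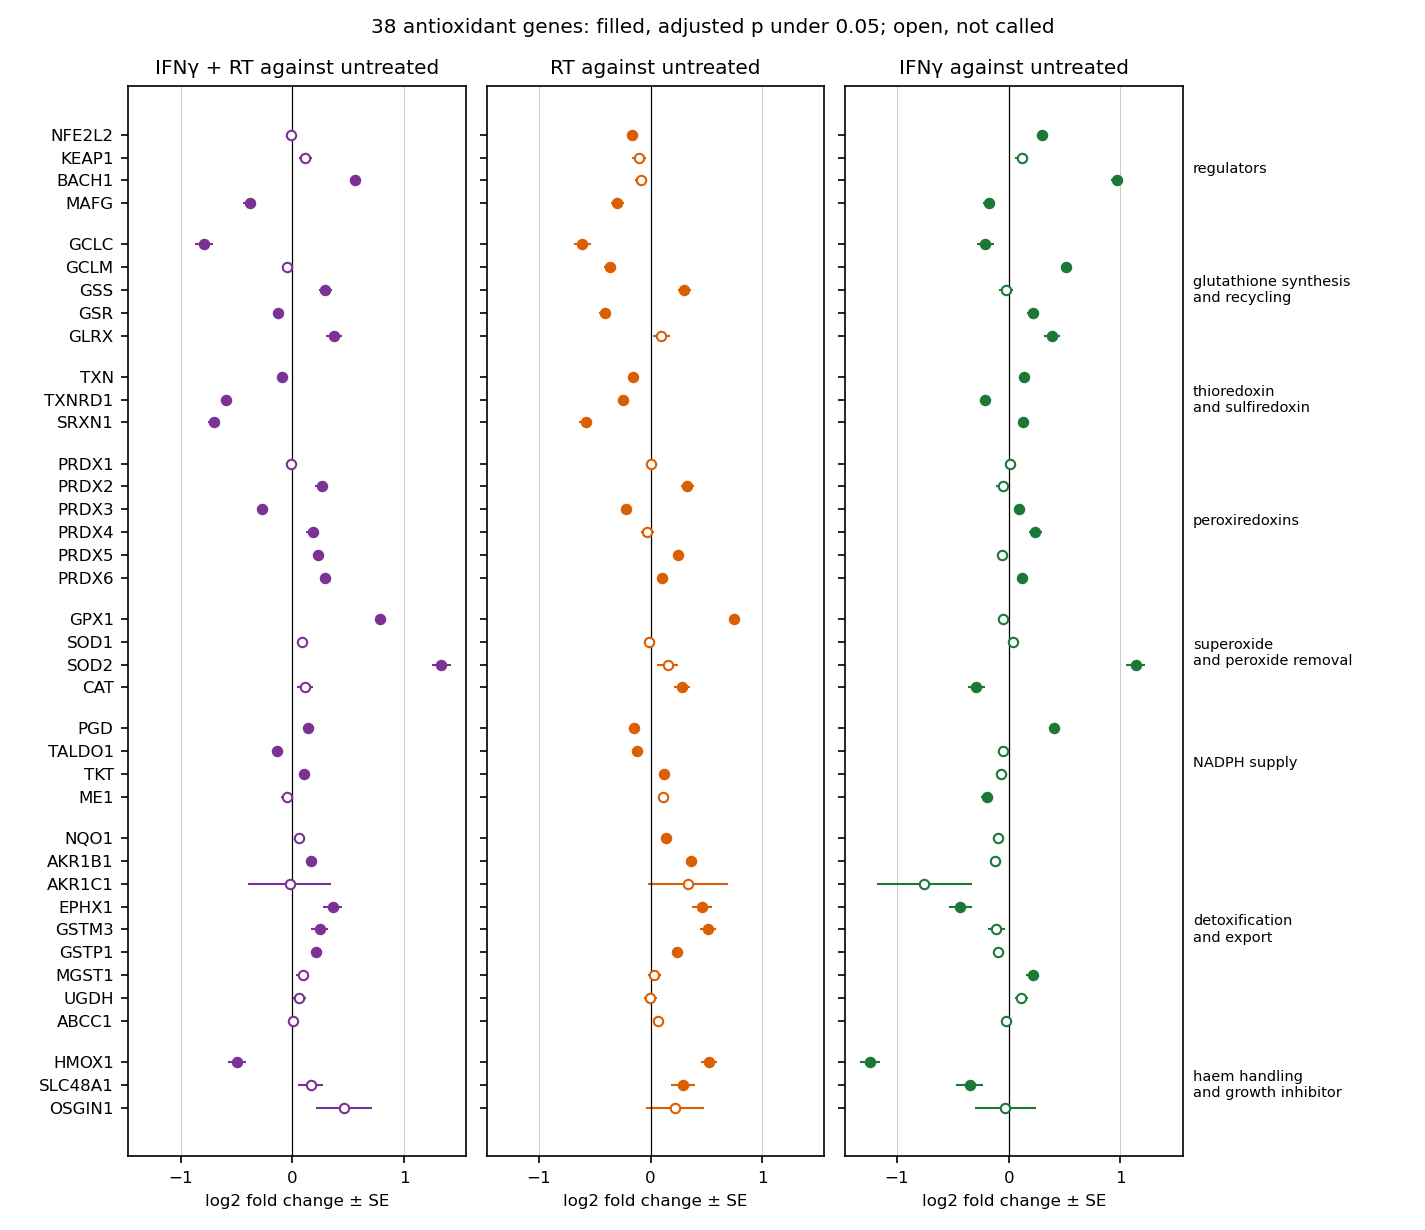
Log2 fold change ± SE of each of the 38 genes (rows, grouped by role) in combination, irradiated and IFNγ-treated cells against untreated cells, 3 libraries per group. Filled points were called at an adjusted p under 0.05. SOD2 and BACH1 lie farthest right with IFNγ, HMOX1 farthest left, and GPX1 farthest right with radiation alone.

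Among the regulators, IFNγ raised NFE2L2 and BACH1 transcripts and radiation raised neither. BACH1, the repressor, was at 95.7, 98.8 and 103 CPM in combination cells, 64.1, 59.9 and 66.2 CPM in irradiated cells, 136, 129 and 129 CPM in IFNγ-treated cells, and 62.7, 70.6 and 68.1 CPM in untreated cells. Every library with IFNγ lay above every library without it, and the combination libraries lay between the IFNγ-treated and the irradiated ones. The log2 fold change was 0.56 ± 0.0494 in combination cells (adjusted p = 7.35e-15) and 0.97 ± 0.0478 in IFNγ-treated cells (adjusted p = 8.27e-25), each against untreated cells. With radiation alone it was -0.082 and not called, and -0.043 without irradiated replicate 2. The radiation value was called without untreated replicate 1 (-0.13).

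NFE2L2 was at 115, 129 and 119 CPM in combination cells, 106, 107 and 111 CPM in irradiated cells, 147, 147 and 154 CPM in IFNγ-treated cells, and 115, 124 and 126 CPM in untreated cells. IFNγ-treated libraries were the highest and irradiated libraries the lowest, while combination and untreated libraries overlapped. Its log2 fold change was 0.30 ± 0.0430 with IFNγ alone (adjusted p = 7.71e-08), -0.17 ± 0.0449 with radiation alone (adjusted p = 0.00114) and -0.0068 in combination cells, which was not called. Against irradiated cells the combination was higher by 0.16 ± 0.0449 (log2), a call lost without combination replicate 2, where the value was 0.11.

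MAFG, a small MAF partner of NRF2 and of BACH1, fell in all treated groups. It was at 44.1, 46.6 and 48.4 CPM in combination cells, 50.5, 46.5 and 50.5 CPM in irradiated cells, 56.3, 51.8 and 52.3 CPM in IFNγ-treated cells, and 63.3, 58.1 and 59.99 CPM in untreated cells. No treated library reached the untreated range. MAFG had log2 fold changes of -0.38 ± 0.0572 in combination cells, -0.30 ± 0.0571 in irradiated cells and -0.18 ± 0.0560 in IFNγ-treated cells, and the IFNγ call was lost in DESeq2 (adjusted p = 0.0842), without untreated replicate 1 (-0.14) and without IFNγ replicate 2 (-0.16).

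KEAP1, the NRF2 anchor, was at 52.1, 54.7 and 57.2 CPM in combination cells, 48.99, 49.1 and 43.3 CPM in irradiated cells, 54.1, 58.3 and 51.5 CPM in IFNγ-treated cells, and 51.9, 50.7 and 48.8 CPM in untreated cells. None of the 3 treated groups was called against untreated cells, with log2 fold changes of 0.12 in combination, -0.10 in irradiated and 0.12 in IFNγ-treated cells. The combination value was called without combination replicate 1 (0.15). Combination cells were above irradiated cells by 0.22 ± 0.0600 (log2), which was no longer called without irradiated replicate 3, at 0.16. Exons of NFE2L2, BACH1 and MAFG overlap those of other protein-coding genes, as do those of 6 more of the 38. The strand setting of the counting is not given in the sources used here, so such counts carry some uncertainty. GRIK1, which overlaps BACH1, averaged 0.911 CPM in combination, 0.764 in irradiated, 1.20 in IFNγ-treated and 0.808 CPM in untreated cells. AGPS, which overlaps NFE2L2 on the other strand, averaged 146 ± 0.892 CPM in combination, 159.8 ± 1.95 in irradiated, 162 ± 6.55 in IFNγ-treated and 159.9 ± 7.40 CPM in untreated cells. Its log2 fold changes were -0.13 in combination cells, which was called, and -0.00045 with radiation and 0.022 with IFNγ, neither called. SIRT7, which overlaps MAFG on the same strand, rose in combination (0.30 ± 0.0997) and irradiated cells (0.28 ± 0.101) and was at -0.029, not called, with IFNγ.

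**Figure D2:**
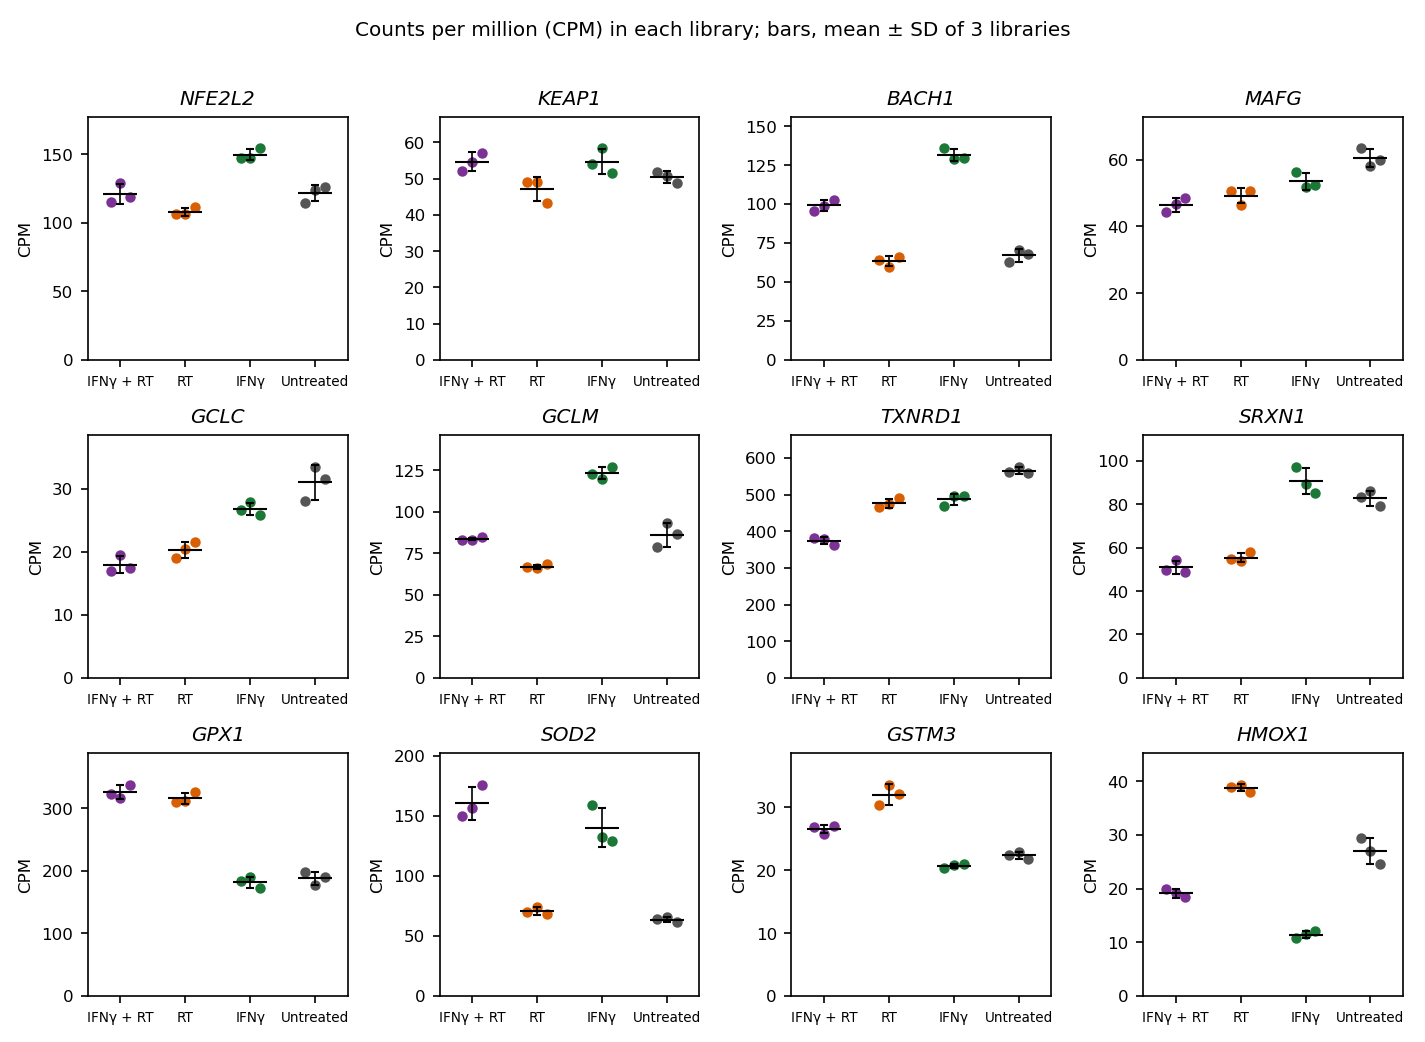
Levels in CPM (vertical axes, starting at 0) of 12 genes in the 3 libraries of each group, with bars at mean ± SD. In the BACH1 and SOD2 panels all libraries with IFNγ lie above all libraries without it, and in the GPX1 panel all irradiated libraries lie above all unirradiated ones.

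In glutathione synthesis, both subunits of the rate-limiting enzyme fell with radiation alone, and GCLM rose with IFNγ alone. GCLC, the catalytic subunit of glutamate-cysteine ligase, was at 16.97, 19.5 and 17.4 CPM in combination cells, 18.95, 20.5 and 21.5 CPM in irradiated cells, 26.6, 27.8 and 25.9 CPM in IFNγ-treated cells, and 28.05, 33.5 and 31.5 CPM in untreated cells. All irradiated libraries, with or without IFNγ, were below all unirradiated ones. GCLC had log2 fold changes of -0.79 ± 0.0811 in combination cells (adjusted p = 1.78e-12) and -0.61 ± 0.0799 with radiation alone (adjusted p = 2.91e-09). With IFNγ alone its log2 fold change was -0.21 ± 0.0752, a call that was lost in DESeq2 (adjusted p = 0.182) and without untreated replicate 2 (-0.15), untreated replicate 3 (-0.20), IFNγ replicate 1 (-0.21) or IFNγ replicate 3 (-0.19).

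GCLM, the modifier subunit that makes the ligase more efficient, was at 83.2, 83.1 and 84.7 CPM in combination cells, 66.5, 65.98 and 68.3 CPM in irradiated cells, 123, 120 and 127 CPM in IFNγ-treated cells, and 78.8, 93.2 and 86.8 CPM in untreated cells. IFNγ-treated libraries stood clear above and irradiated libraries clear below the untreated ones, and combination libraries overlapped the untreated range. GCLM changed by a log2 of 0.52 ± 0.0468 with IFNγ alone (adjusted p = 6.92e-14), -0.37 ± 0.0514 with radiation alone (adjusted p = 1.76e-08; -0.36 without irradiated replicate 2) and -0.044 in combination cells, not called. The ratio of GCLM to GCLC counts was 4.68 ± 0.35 in combination cells, 3.30 ± 0.18 in irradiated cells, 4.62 ± 0.303 in IFNγ-treated cells and 2.78 ± 0.0257 in untreated cells (SD, n = 3 each). No library with IFNγ overlapped a library without it in this ratio, and the ratio compares counts of transcripts of unequal length, so only its differences between groups can be read.

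The promoter windows of the pair, taken from RefSeq on GRCh38.p14, are shown because the 2 subunits form 1 enzyme and their count ratio differed between groups. Each window runs from 250 bases before the start site to 50 after it. Capitals mark matches to the core of the antioxidant response element, TGACNNNGC, on either strand. The GCLM window (chr1:93909381-93909680, minus strand) holds 1 match, GCTTAGTCA, which begins 34 bases before the start site. The GCLC window (chr6:53545052-53545351, minus strand) holds none. Sequence farther from the start sites was not searched, so the windows cannot show whether either gene lacks such an element.
GCLM: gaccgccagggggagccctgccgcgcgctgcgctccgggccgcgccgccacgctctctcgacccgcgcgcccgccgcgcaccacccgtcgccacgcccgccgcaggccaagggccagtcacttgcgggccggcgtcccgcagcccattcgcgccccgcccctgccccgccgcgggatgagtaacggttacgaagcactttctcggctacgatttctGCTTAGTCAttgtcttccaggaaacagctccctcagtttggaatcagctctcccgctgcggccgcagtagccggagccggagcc
GCLC: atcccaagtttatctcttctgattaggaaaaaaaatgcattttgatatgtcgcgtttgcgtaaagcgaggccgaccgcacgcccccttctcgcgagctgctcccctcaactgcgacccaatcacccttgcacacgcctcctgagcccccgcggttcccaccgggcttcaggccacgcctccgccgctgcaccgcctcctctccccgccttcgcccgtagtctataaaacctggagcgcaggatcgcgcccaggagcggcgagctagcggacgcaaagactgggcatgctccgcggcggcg

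GSS, glutathione synthetase, rose by 0.30 ± 0.0565 (log2) in combination and 0.30 ± 0.0569 in irradiated cells and was at -0.024, not called, with IFNγ. GSR, the reductase that regenerates reduced glutathione, fell with radiation (-0.41 ± 0.0512) and rose with IFNγ (0.21 ± 0.0477). In combination cells it was at -0.13, a call lost in DESeq2 (adjusted p = 0.107), without untreated replicate 2 (-0.080) and without combination replicate 1 (-0.10). GLRX, glutaredoxin, which removes glutathione from protein thiols, rose by 0.38 ± 0.0718 in combination and 0.39 ± 0.0721 in IFNγ-treated cells and was at 0.098, not called, with radiation.

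In the thioredoxin system, all 3 genes fell in combination and in irradiated cells, where 62.1% and 56.1% of all genes were called in either direction. TXNRD1, the reductase that keeps thioredoxin reduced, averaged 374 ± 9.63 CPM in combination cells, 477 ± 12.02 in irradiated cells, 487 ± 15.6 in IFNγ-treated cells and 565 ± 10.1 CPM in untreated cells (SD, n = 3 each). Its libraries were at 381, 378 and 363 CPM in combination cells, 467, 474 and 490.2 CPM in irradiated cells, 469, 497 and 496 CPM in IFNγ-treated cells, and 561, 577 and 558 CPM in untreated cells. The combination libraries were below all others and the untreated libraries above all others. TXNRD1 had log2 fold changes of -0.60 ± 0.0311 in combination cells (adjusted p = 3.63e-24), -0.24 ± 0.0307 in irradiated cells and -0.21 ± 0.0306 in IFNγ-treated cells, and it was lower in combination cells than in either single treatment.

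SRXN1, sulfiredoxin, which repairs over-oxidized peroxiredoxins, was at 49.7, 54.4 and 48.6 CPM in combination cells, 54.6, 53.6 and 57.8 CPM in irradiated cells, 97.3, 89.4 and 85.4 CPM in IFNγ-treated cells, and 83.1, 86.1 and 79.2 CPM in untreated cells. Both irradiated groups were clear of both unirradiated groups. Exons of the protein-coding AL121758.1 overlap those of SRXN1 on the same strand, and the part of shared reads was not tested. The log2 fold change of SRXN1 was -0.70 ± 0.0551 in combination cells (adjusted p = 9.71e-17) and -0.58 ± 0.0547 in irradiated cells (adjusted p = 1.18e-13). With IFNγ alone the libraries overlapped the untreated range and the log2 fold change was 0.13 ± 0.0505. That call was lost in DESeq2 (adjusted p = 0.190), with library totals (0.073), with only the compared groups in the fit (0.13), and without untreated replicate 1 (0.13), untreated replicate 3 (0.10), IFNγ replicate 1 (0.068) or IFNγ replicate 2 (0.14).

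TXN, thioredoxin itself, had the highest level per length of the 38 in untreated cells, at 259 CPM per kilobase of exon, and changed little. Its log2 fold changes were -0.090 ± 0.0362 in combination, -0.16 ± 0.0365 in irradiated and 0.13 ± 0.0359 in IFNγ-treated cells. The combination call was lost in DESeq2 (adjusted p = 0.0844), without untreated replicate 3 (-0.087), combination replicate 2 (-0.089) or combination replicate 3 (-0.055), and the IFNγ call was lost with library totals (0.075) or without IFNγ replicate 1 (0.095).

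Both RefSeq windows of TXNRD1 are shown because TXNRD1 fell in every treated group and each of its windows holds a match. The first (chr12:104215529-104215828, plus strand) holds 2 matches to TGACNNNGC, TGACTTCGC 99 bases and GCTCCGTCA 8 bases before the start site. The second (chr12:104286782-104287081, plus strand) holds GCTTTGTCA 102 bases before its start site. Capitals mark these matches.
TXNRD1 window 1: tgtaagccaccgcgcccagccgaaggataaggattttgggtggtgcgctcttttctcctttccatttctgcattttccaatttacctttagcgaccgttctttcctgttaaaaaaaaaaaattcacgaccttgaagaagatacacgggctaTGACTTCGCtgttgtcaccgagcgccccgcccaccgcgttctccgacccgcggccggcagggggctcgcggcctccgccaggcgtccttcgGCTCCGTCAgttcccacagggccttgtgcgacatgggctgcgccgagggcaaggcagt
TXNRD1 window 2: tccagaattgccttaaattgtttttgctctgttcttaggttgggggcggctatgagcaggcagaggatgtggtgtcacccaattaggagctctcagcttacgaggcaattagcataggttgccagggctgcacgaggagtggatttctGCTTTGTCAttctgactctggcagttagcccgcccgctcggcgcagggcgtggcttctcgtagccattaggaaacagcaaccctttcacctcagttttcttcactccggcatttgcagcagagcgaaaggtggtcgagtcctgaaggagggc

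Among the 6 peroxiredoxins, the thiol peroxidases that reduce hydrogen peroxide, 4 rose and 1 fell in combination cells, where 62.1% of all genes were called. PRDX6, which uses glutathione, rose by 0.29 ± 0.0341 (log2), PRDX2 by 0.26 ± 0.0609, PRDX5 by 0.23 ± 0.0454 and PRDX4, the enzyme of the endoplasmic reticulum, by 0.18 ± 0.0575. PRDX3, the mitochondrial form, fell by 0.27. With radiation alone PRDX2 (0.33 ± 0.0609), PRDX5 (0.25 ± 0.0456) and PRDX6 (0.11 ± 0.0346) rose and PRDX3 fell (-0.22 ± 0.0372), where 56.1% of all genes were called.

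With IFNγ alone 3 peroxiredoxins were called, where 29.1% of all genes were. PRDX4 rose by 0.24 ± 0.0574, a call kept under all alternatives tried. PRDX6 was at 0.12 and lost its call with library totals (0.064) and without IFNγ replicate 1 (0.092). PRDX3 was at 0.095 and lost its call in DESeq2 (adjusted p = 0.116), with library totals (0.037), with only the compared groups in the fit (0.097), and without untreated replicate 1 (0.086), 2 (0.10) or 3 (0.10) or IFNγ replicate 1 (0.052). PRDX1 was called in none of the pairwise comparisons, with log2 fold changes of -0.010 in combination, 0.00063 in irradiated and 0.014 in IFNγ-treated cells.

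SOD2, the manganese superoxide dismutase of mitochondria and a known target of inflammatory signalling, showed the largest rise of the 38 in combination and in IFNγ-treated cells. It was at 149, 156 and 176 CPM in combination cells, 69.7, 74.2 and 68.5 CPM in irradiated cells, 159, 133 and 129 CPM in IFNγ-treated cells, and 63.7, 65.7 and 61.5 CPM in untreated cells. All libraries with IFNγ were above all without it. SOD2 rose by a log2 of 1.34 ± 0.0844 in combination cells (adjusted p = 1.30e-08) and 1.14 ± 0.0860 in IFNγ-treated cells (adjusted p = 3.01e-07). With radiation alone it was 0.15 ± 0.0952 and not called, and 0.12 without irradiated replicate 2. The radiation change was called without the filter on low counts (0.15), with only the compared groups (0.16) or without IFNγ replicate 1 (0.15). Exons of WTAP overlap those of SOD2 on the other strand. WTAP had log2 fold changes of -0.11 in combination, -0.28 in irradiated and 0.099 in IFNγ-treated cells, the last not called. Another protein-coding entry named SOD2 overlaps the SOD2 exons on the same strand, and the part of shared reads was not tested.

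GPX1, a cytosolic glutathione peroxidase, showed the largest rise with radiation alone. It was at 322, 317 and 338 CPM in combination cells, 311, 312 and 326 CPM in irradiated cells, 184, 189.6 and 172 CPM in IFNγ-treated cells, and 198, 177 and 191 CPM in untreated cells. All irradiated libraries were above all unirradiated ones, while IFNγ-treated and untreated libraries overlapped. GPX1 had log2 fold changes of 0.79 ± 0.0379 in combination cells (adjusted p = 4.90e-25), 0.75 ± 0.0381 in irradiated cells (adjusted p = 1.18e-23) and -0.051 with IFNγ, not called. The IFNγ value was called with library totals (-0.11). CAT, catalase, rose with radiation (0.28 ± 0.0706), fell with IFNγ (-0.29 ± 0.0761) and was at 0.11 in combination cells, not called. SOD1, the cytosolic dismutase, was called in no pairwise comparison, with log2 fold changes of 0.084 in combination, -0.013 in irradiated and 0.040 in IFNγ-treated cells. The combination value was called without untreated replicate 1 or combination replicate 3 (0.11 each). Against irradiated cells SOD1 was called with only the compared groups (0.10) or without combination replicate 3 (0.13).

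The 4 NADPH-supplying enzymes changed by at most 0.40 (log2). PGD, 6-phosphogluconate dehydrogenase, rose with IFNγ (0.40 ± 0.0361, adjusted p = 5.76e-14) and in combination cells (0.14 ± 0.0367) and fell with radiation (-0.15 ± 0.0377). TKT, transketolase, rose slightly in combination (0.10 ± 0.0299) and irradiated cells (0.12 ± 0.0300). ME1, malic enzyme, fell with IFNγ (-0.19 ± 0.0531) and was not called in the other 2 comparisons with untreated cells. With radiation ME1 was at 0.12 (edgeR adjusted p = 0.0501) and was called with RLE size factors (0.12) or library totals (0.14). It was also called there without irradiated replicate 1 (0.14) or combination replicate 3 (0.12). TALDO1, transaldolase, was at -0.14 in combination and -0.12 in irradiated cells. Its combination call was lost without untreated replicate 1 (-0.098). Its radiation call was lost in DESeq2 (adjusted p = 0.0878), with library totals (-0.10) and without untreated replicate 1 (-0.079), irradiated replicate 1 (-0.11) or irradiated replicate 3 (-0.11).

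Of the 9 detoxification and export genes, 4 rose and 0 fell in combination cells, and 5 rose and 0 fell in irradiated cells. These shares, 44.4% and 55.6%, compare with 62.1% and 56.1% of all genes called. With IFNγ alone 1 rose and 1 fell, 22.2% against 29.1% of all genes. GSTM3, a glutathione S-transferase, was at 26.9, 25.8 and 27 CPM in combination cells, 30.3, 33.6 and 32.2 CPM in irradiated cells, 20.4, 20.9 and 20.97 CPM in IFNγ-treated cells, and 22.5, 22.9 and 21.8 CPM in untreated cells. Irradiated libraries were the highest, combination libraries lay next, and both were clear of the untreated ones. The log2 fold change was 0.24 ± 0.0751 in combination cells (adjusted p = 0.00402), 0.52 ± 0.0730 in irradiated cells (adjusted p = 2.03e-08) and -0.11 with IFNγ, not called.

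EPHX1, a microsomal epoxide hydrolase, rose in combination (0.36 ± 0.0882) and irradiated cells (0.46 ± 0.0878) and fell with IFNγ alone (-0.43 ± 0.0998). Its exons overlap those of TMEM63A on the other strand, which averaged 29.7 ± 0.829 CPM in combination, 24.4 ± 1.34 in irradiated, 19.8 ± 0.190 in IFNγ-treated and 14.8 ± 0.974 CPM in untreated cells and rose in all 3 treated groups, by 1.00 ± 0.0813 in combination, 0.72 ± 0.0854 in irradiated and 0.42 ± 0.0888 in IFNγ-treated cells. EPHX1 averaged 20.9 ± 0.749 CPM in combination, 22.3 ± 1.71 in irradiated, 11.99 ± 1.01 in IFNγ-treated and 16.2 ± 0.615 CPM in untreated cells, and the part of shared reads in its values was not tested. AKR1B1, an aldo-keto reductase, rose by 0.17 ± 0.0478 in combination and 0.36 ± 0.0472 in irradiated cells. GSTP1, another glutathione S-transferase, rose by 0.21 ± 0.0418 and 0.23 ± 0.0419 in the same comparisons. NQO1, the quinone reductase widely used as a reporter of NRF2 activity, was at 0.062 in combination cells and -0.095 with IFNγ, neither called. The IFNγ value was called with library totals (-0.15) or without IFNγ replicate 1 (-0.14). NQO1 rose by 0.14 ± 0.0450 with radiation. MGST1, a membrane-bound glutathione transferase, was called with IFNγ alone (0.22 ± 0.0574), a call lost without IFNγ replicate 1 (0.16). ABCC1, an exporter of glutathione conjugates, was called in no pairwise comparison and was at 0.0094 in combination, 0.068 in irradiated and -0.023 in IFNγ-treated cells. UGDH, which makes UDP-glucuronate, was not called either, at 0.063 in combination, -0.0025 in irradiated and 0.11 in IFNγ-treated cells. AKR1C1, an aldo-keto reductase with near-identical paralogs that can share its few reads, was not called, at -0.024 ± 0.375 in combination, 0.34 ± 0.358 in irradiated and -0.76 ± 0.425 in IFNγ-treated cells.

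Windows of ME1 (chr6:83431002-83431301, minus strand) and GSTP1 (chr11:67583562-67583861, plus strand), also from RefSeq on GRCh38.p14, are shown because they hold the same 9 bases, TGACTCAGC, and GSTP1 rose in combination cells while ME1 was not called. The match begins 137 bases before the start site in ME1 and 66 before it in GSTP1, and ME1 has another, GCACCGTCA, 12 bases after its start site. Capitals again mark TGACNNNGC on either strand.
ME1: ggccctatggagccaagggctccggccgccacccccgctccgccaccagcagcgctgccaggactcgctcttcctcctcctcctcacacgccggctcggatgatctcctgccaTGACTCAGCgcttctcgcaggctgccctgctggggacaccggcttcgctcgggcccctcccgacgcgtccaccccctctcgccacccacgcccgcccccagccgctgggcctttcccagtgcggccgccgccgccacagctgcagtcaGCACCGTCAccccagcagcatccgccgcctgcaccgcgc
GSTP1: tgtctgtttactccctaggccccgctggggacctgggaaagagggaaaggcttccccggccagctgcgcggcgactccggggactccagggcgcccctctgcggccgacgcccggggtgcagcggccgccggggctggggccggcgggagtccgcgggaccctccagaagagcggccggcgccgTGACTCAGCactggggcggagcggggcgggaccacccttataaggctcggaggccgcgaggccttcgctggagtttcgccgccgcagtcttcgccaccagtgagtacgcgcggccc

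Windows were found for 31 of the 38 genes, 45 windows in all, and 9 of the 45 held the antioxidant core, against 13.3% of 35116 RefSeq windows of the same length. The genes with a match were PGD, GCLM, EPHX1, ME1, GSTP1, MGST1, TXNRD1 and KEAP1. Of these 8, TXNRD1 fell, 3 rose and the others were not called in combination cells. Both strands of the windows were searched, and sequence outside them was not. A match is a run of letters and no measure of binding, and HMOX1, PRDX6, GSS, ABCC1, PRDX1, GSR and SOD1 had no window to search.

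HMOX1, haem oxygenase 1, which breaks down haem and is the classical gene repressed by BACH1, showed the largest fall of the 38 with IFNγ. It was at 20.01, 19.1 and 18.4 CPM in combination cells, 39.01, 39.4 and 38 CPM in irradiated cells, 10.8, 11.5 and 12.04 CPM in IFNγ-treated cells, and 29.5, 26.9 and 24.6 CPM in untreated cells. The 4 groups did not overlap: irradiated libraries were highest, then untreated, combination and IFNγ-treated libraries. The log2 fold change was -0.50 ± 0.0801 in combination cells (adjusted p = 3.22e-07), 0.52 ± 0.0703 in irradiated cells (adjusted p = 6.12e-09; 0.51 without irradiated replicate 2) and -1.24 ± 0.0901 in IFNγ-treated cells (adjusted p = 1.36e-17). HMOX1 fell in both groups in which BACH1 transcripts rose. Whether the changes of these genes are linked was not tested.

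SLC48A1, which carries haem out of lysosomes, had log2 fold changes of 0.29 ± 0.109 with radiation, -0.35 ± 0.120 with IFNγ and 0.16, not called, in combination cells. The radiation call was lost in DESeq2 (adjusted p = 0.120) and without untreated replicate 3 (0.23) or irradiated replicate 2 (0.21), and the IFNγ call in DESeq2 (adjusted p = 0.140) and without untreated replicate 1 (-0.30), untreated replicate 2 (-0.34) or IFNγ replicate 3 (-0.31). Exons of RAPGEF3 and HDAC7 overlap those of SLC48A1 on the other strand. RAPGEF3 was at 0.64 ± 0.177 (log2) with radiation, 0.60 ± 0.176 in combination cells and -0.34, not called, with IFNγ. HDAC7 averaged 52.1 CPM in combination, 47.4 in irradiated, 58.0 in IFNγ-treated and 62.8 CPM in untreated cells. SLC48A1 averaged 12.1, 13.3, 8.51 and 10.8 CPM in the same order, and the part of shared reads was not tested. OSGIN1, an NRF2-responsive growth inhibitor, was called in no pairwise comparison, at 0.46 ± 0.251 in combination, 0.22 ± 0.263 in irradiated and -0.030 ± 0.273 in IFNγ-treated cells. The combination value was called without untreated replicate 1 (0.72).

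Each agent was also measured on top of the other, in libraries that the single-agent comparison does not use. IFNγ added to radiation changed 15 of the 38 relative to irradiated cells, 10 upward and 5 downward, where 26.9% of all genes were called, 14.5% higher and 12.4% lower. A log2 fold change of at least 0.5 was reached by 3 of the called genes, and by 6.61% of all genes. With library totals the count was 18, 10 higher and 8 lower, and without irradiated replicate 2 it was 14, 10 higher and 4 lower. Shares of all genes under these settings are not given here, so these counts cannot be set against them. SOD2 was higher in combination cells than in irradiated cells by 1.18 ± 0.0834 (log2), BACH1 by 0.64 ± 0.0502 and GCLM by 0.32 ± 0.0515, and HMOX1 was lower by 1.02. Without irradiated replicate 2 the values were 1.22, 0.60, 0.31 and, for HMOX1, -1.01.

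Radiation added to IFNγ changed 27 of the 38 relative to IFNγ-treated cells, 16 upward and 11 downward, where 60.7% of all genes were called, 30.3% higher and 30.4% lower. A log2 fold change of at least 0.5 was reached by 7 of the called genes, and by 20.1% of all genes. GPX1 (0.84 ± 0.0381), EPHX1 (0.79 ± 0.0944) and HMOX1 (0.74 ± 0.0965) were highest above IFNγ-treated cells, and SRXN1 (-0.83 ± 0.0544), GCLC (-0.58 ± 0.0836) and GCLM (-0.56 ± 0.0469) lowest below them. NFE2L2 was lower by 0.31 and BACH1 by 0.40. SOD2 was called at 0.20 ± 0.0755, although its combination and IFNγ-treated libraries overlapped. That call was lost with only the compared groups in the fit (0.20, adjusted p = 0.190), with the replicate number as a block (0.20, adjusted p = 0.0900) and without untreated replicate 1, 2 or 3 (0.20 each), IFNγ replicate 2 (0.16), IFNγ replicate 3 (0.14), irradiated replicate 1 (0.20) or combination replicate 3 (0.13).

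Of the genes called for IFNγ, 12 were called the same way with and without radiation, 80% of the 15 called in irradiated and 57.1% of the 21 called in unirradiated cells, and 0 were called in opposite directions. Over all genes the shares were 62.8% and 58%. Of genes called with IFNγ in unirradiated cells alone, SRXN1 was at -0.12 in irradiated and 0.13 in unirradiated cells, and PRDX3 at -0.047 and 0.095. Neither was called in irradiated cells, although SRXN1 was there with library totals (-0.16). For radiation, 24 were called the same way with and without IFNγ, 88.9% of the 27 called with IFNγ and 96% of the 25 called without it, and 0 in opposite directions, against shares of 77.2% and 83.6% over all genes. Across the 38 genes, which are not independent replicates, log2 effects correlated at r = 0.93 for IFNγ and r = 0.94 for radiation, against 0.90 and 0.86 over all 12160 genes. Combination libraries did not overlap IFNγ-treated ones for 17 genes that were higher and 12 that were lower, and did not overlap irradiated ones for 12 that were higher and 7 that were lower, where 64.2% and 40.3% of all genes had groups that did not overlap. The 2 settings share no library but were scaled together.

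**Figure D3:**
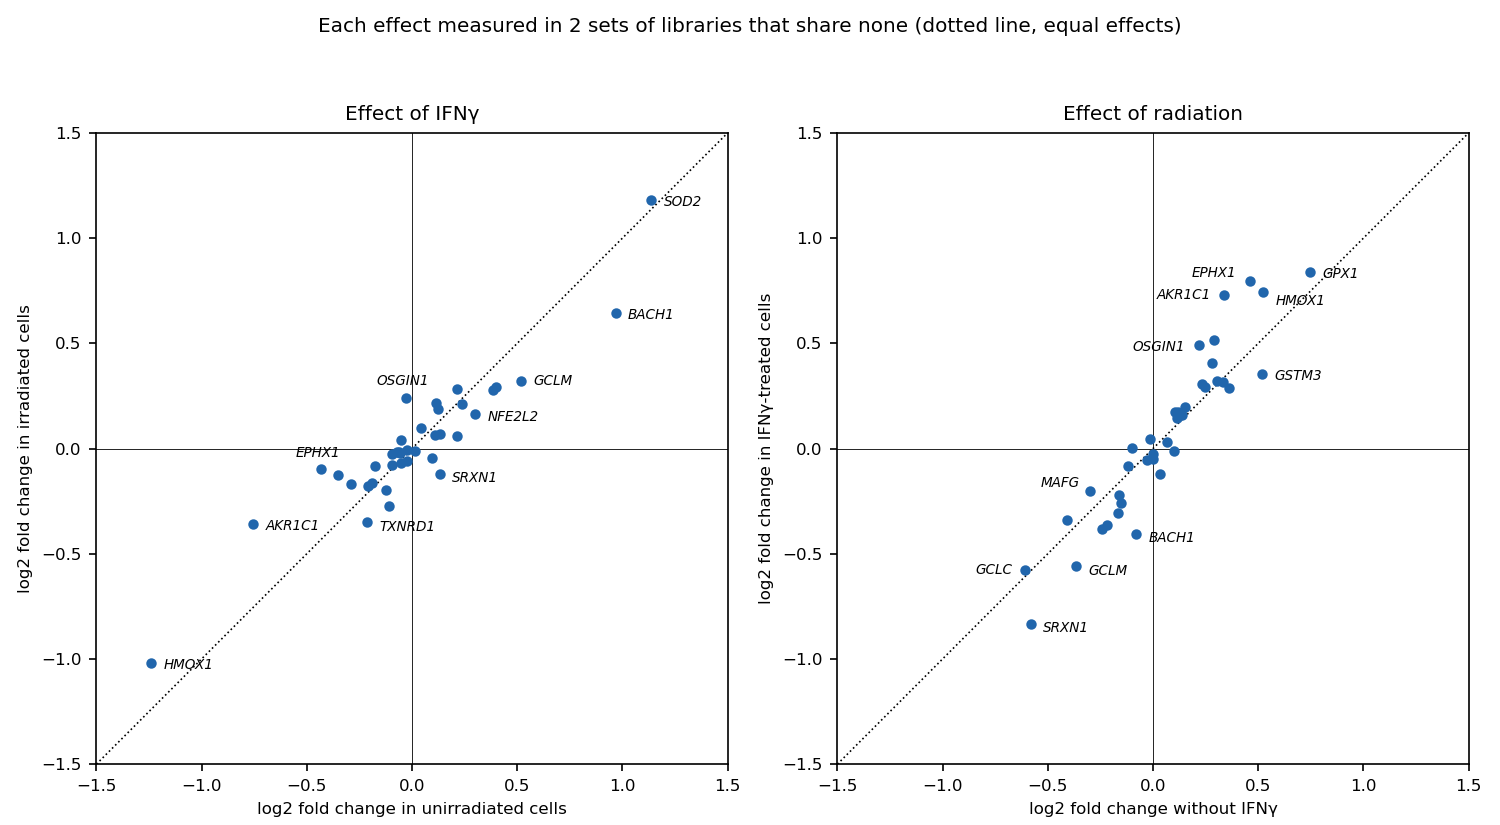
Log2 fold changes of the 38 genes (points) for IFNγ in irradiated cells (vertical) against unirradiated cells (horizontal), left, and for radiation with IFNγ (vertical) against without (horizontal), right. The dotted line marks equal effects, most genes lie near it (r = 0.93 and 0.94), and BACH1 lies below it in both panels.

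The interaction, the IFNγ effect in irradiated cells minus that in unirradiated cells, was called for 1 of the 38, BACH1, where 2.38% of all genes were called, 1.38% higher and 0.995% lower. An absolute value of at least 0.5 with a call was reached by 0 of the 38 and by 0.502% of all genes. The BACH1 value was -0.32 ± 0.0698 (log2, adjusted p = 0.00337), and -0.36 without irradiated replicate 2. IFNγ raised BACH1 by 0.64 in irradiated and by 0.97 in unirradiated cells. At an unadjusted p under 0.05 there were 8 of the 38, a limit at which the share of all genes was not taken. That count cannot be read as particular to the 38. Without untreated replicate 2 the interaction was called for 4, the others being GCLM (-0.26), TXNRD1 (-0.15) and SRXN1 (-0.28), and SRXN1 was also called without IFNγ replicate 3 (-0.29) or combination replicate 2 (-0.30).

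The neighbouring genes of the pathway were taken from a list of 73, of which 60 were kept for testing. In combination cells 26 of the 60 rose and 16 fell, in irradiated cells 23 rose and 17 fell, and in IFNγ-treated cells 10 rose and 10 fell, against untreated cells. The shares called, 70%, 66.7% and 33.3%, compare with 62.1%, 56.1% and 29.1% of all genes. With library totals the IFNγ split was 9 higher and 15 lower, and the share of all genes under that setting is not given here. Among 20 other glutathione enzymes 6 rose and 7 fell in combination cells, among 17 other NRF2-associated enzymes and carriers 9 rose and 4 fell, among 14 other thioredoxin and antioxidant genes 8 rose and 3 fell, and among 9 other CNC, small MAF and ubiquitin adaptor genes 3 rose and 2 fell. The median log2 fold change of the 60 was 0.13 in combination, 0.12 in irradiated and -0.015 in IFNγ-treated cells, where those of all genes were -0.0014, 0.0061 and -0.0052.

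The 4 largest falls among the 60 in combination cells were those of CHAC1, SLC7A11, MAFF and CHAC2. CHAC1, which degrades glutathione, was at 0.687, 0.850 and 0.459 CPM in combination cells, 1.01, 0.301 and 0.583 CPM in irradiated cells, 6.53, 8.40 and 8.73 CPM in IFNγ-treated cells, and 7.04, 8.38 and 7.51 CPM in untreated cells. Irradiated libraries of both kinds were below all unirradiated ones, at 3 to 10 counts each. Its log2 fold change was -3.50 ± 0.249 in combination, -3.58 ± 0.256 in irradiated and 0.046, not called, in IFNγ-treated cells. CHAC2, its relative, fell in combination (-0.60 ± 0.118) and irradiated cells (-0.49 ± 0.118). SLC7A11, the cystine importer that feeds glutathione synthesis, averaged 14.1 ± 1.41 CPM in combination, 33.6 ± 2.03 in irradiated, 78.3 ± 6.0 in IFNγ-treated and 108 ± 9.78 CPM in untreated cells (SD, n = 3 each), the only one of the 60 called in the interaction (-0.79).

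MAFF, another small MAF, was at 18.1, 21.1 and 20.9 CPM in combination cells, 11.9, 13.6 and 13.03 CPM in irradiated cells, 45.6, 44.2 and 38.3 CPM in IFNγ-treated cells, and 31.6, 30.9 and 32.8 CPM in untreated cells. The 4 groups did not overlap, with IFNγ-treated libraries highest and irradiated libraries lowest. Its log2 fold change was -0.66 ± 0.0795 in combination, -1.31 ± 0.0886 in irradiated and 0.43 ± 0.0690 in IFNγ-treated cells, a fall with radiation and a rise with IFNγ.

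GSTK1, a glutathione transferase of mitochondria and peroxisomes, rose with each agent and most with both. It was at 110.1, 109.8 and 118 CPM in combination cells, 57.2, 51.5 and 52.3 CPM in irradiated cells, 93.6, 86.4 and 84.6 CPM in IFNγ-treated cells, and 40.1, 35.3 and 42.3 CPM in untreated cells, and the groups did not overlap. Its log2 fold change was 1.52 ± 0.0565 in combination, 0.45 ± 0.0640 in irradiated and 1.17 ± 0.0588 in IFNγ-treated cells. GGT1, which cleaves extracellular glutathione, rose by 1.45 ± 0.182 in combination and 1.35 ± 0.187 in irradiated cells.

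SESN1, a sestrin and known p53 target, rose by 1.56 ± 0.0650 in combination and 1.57 ± 0.0653 in irradiated cells and was at -0.10, not called, with IFNγ. AKR1B10, an aldo-keto reductase, rose by 1.88 ± 0.388 in combination and 2.77 ± 0.340 in irradiated cells, on 2 to 46 counts per library. Its combination value was below that of irradiated cells by 0.89 (log2), a call lost in DESeq2 (adjusted p = 0.123) and without irradiated replicate 1 (-0.66) or combination replicate 3 (-0.72).

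**Figure D4:**
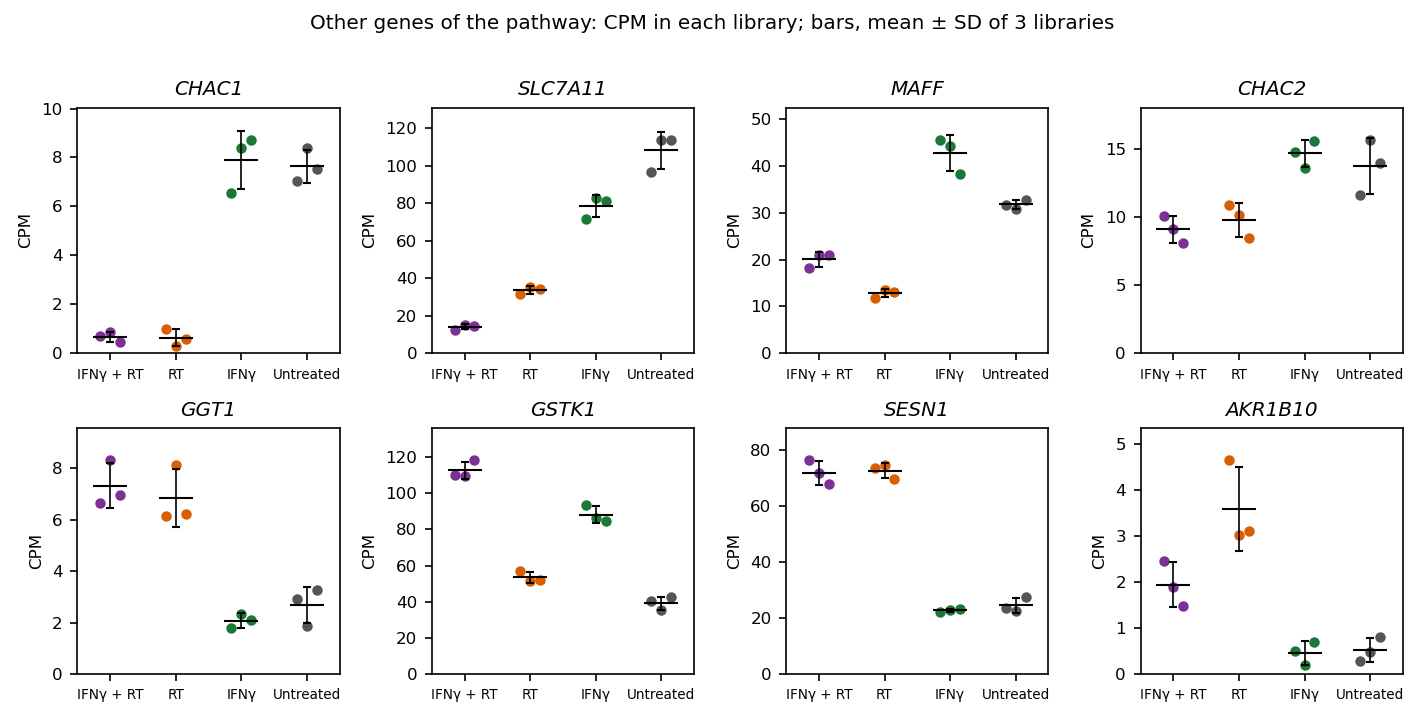
Levels in CPM (vertical axes, starting at 0) of 8 pathway genes outside the 38, in the 3 libraries of each group, with bars at mean ± SD. CHAC1 was at 1.01 CPM or less in all irradiated libraries, and GSTK1 was highest in the combination libraries.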

How the data were processed

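The authors deposited 1 table of raw gene counts, whole numbers with no normalization, for 12 libraries in 4 groups of 3. Per the labels' protocols, ribosomal RNA was removed and stranded total RNA libraries were sequenced in paired ends, while the series' design text names an mRNA protocol. Per the submitters' processing notes, TopHat2 2.0.13, Cuffdiff 2.2.1, Cufflinks and FastQC 0.11.3 were run with hg19/GRCh37. The counting tool and its use of strand are not given in the labels or headers used here. The headings of the 4 annotation columns stand 1 place off, so columns were read by content. All columns of counts were matched to libraries by title, with 0 left over.

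Differences between groups were tested on the counts with edgeR 4.0.16 in R 4.3.3 (filterByExpr, TMM, robust quasi-likelihood F test, all 12 libraries in 1 fit, no block, Benjamini-Hochberg adjustment over 12160 genes, calls at an adjusted p under 0.05). The SE was approximated as the size of the log2 fold change over the root of F. The procedure was tested on simulated data. Alternatives were DESeq2 1.42.0, RLE size factors, library totals, no filter on low counts, only the compared groups, a replicate block and leaving out each library. The labels do not say whether replicates were separate cultures, and p-values then reflect only library-to-library spread, possibly technical. In the 12 pairs of replicates, a chi-square over genes with 20 counts or more was 1.14 to 2.75 per degree of freedom, and no library was treated as a copy.

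The 38 genes and the list of 73 others were chosen with earlier results of these data known. Promoter searches for other motifs are not reported here. Values in every library are given for the 4 regulators, for genes called with an absolute log2 fold change of at least 0.5 against untreated cells and for genes called in the interaction with at least 0.3. Of the 73 others, the called genes with the 4 largest rises and 4 largest falls in combination cells are named.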

Additional observations from a re-analysis of the deposited data

Results flagged for a closer look

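BACH1 was the only one of the 38 genes called in the direct test of whether the response to IFNγ differed with radiation. In that test 2.38% of all genes were called. The interaction, the IFNγ effect in irradiated minus that in unirradiated cells, was -0.32 on the log2 scale (edgeR adjusted p = 0.00337). IFNγ raised BACH1 by 0.64 in irradiated cells and by 0.97 in unirradiated cells. Its value ran from -0.36 to -0.27 over the alternatives tried and was called in all of them.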

How the results depend on the processing

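Of 112 pairwise calls of the 38 genes, 94 were kept under every alternative, 18 were lost under at least 1, and 0 reversed. Some genes that were not called gained a call under at least 1 alternative. They numbered 3 in combination, 3 in irradiated and 7 in IFNγ-treated cells against untreated cells. Against IFNγ-treated cells 1 gene gained a call in combination cells, and against irradiated cells 5 did. The number called ranged, with 1 library left out, from 23 to 25 in combination against untreated cells, 24 to 26 in irradiated against untreated, 17 to 21 in IFNγ-treated against untreated, 25 to 27 in combination against IFNγ-treated and 13 to 16 in combination against irradiated cells. Over the other alternatives it was 22 to 24, 23 to 26, 16 to 24, 26 to 28 and 14 to 18 in the same order. The lowest value for IFNγ against untreated, 16, came from DESeq2. For combination against untreated cells, 57.2% to 62.2% of all genes tested were called with 1 library left out. The DESeq2 share there was 32.5%, taken over all genes before the filter on low counts. The interaction was called for 1 gene, for 2 without the filter on low counts, and for 1 to 4 with 1 library left out. The 4 came without untreated replicate 2, and 2 were called without IFNγ replicate 3 or combination replicate 2. The cause was not tested.

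Replicate numbers did not pair the libraries: deviations of same-numbered libraries correlated at -0.071 to 0.054 in 18 pairs of libraries from different groups. With the replicate number as a block, 24, 25, 21, 26 and 15 genes were called in the pairwise comparisons in the same order, and 1 in the interaction. Shares of all genes called with the block were 62% in combination and 56% in irradiated against untreated cells. Those of the other comparisons are not given here. Depth limited AKR1C1 and OSGIN1, with 4 to 40 counts per library: in combination against untreated cells their SEs were 0.375 and 0.251 (log2), so changes near 0.5 were not detectable.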
